A study of Mus musculus with 8 samples.

Results

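The 10 genes described here, Gata1, Gata2, Klf1, Zfpm1, Tal1, Lmo2, Nfe2, Gfi1b, Ldb1 and Lyl1, encode transcription factors and cofactors of the red cell and platelet lineages. They were taken by symbol from the deposited table of FPKM values (fragments scaled to transcript length and to the mapped fragments of the library), in which each symbol matched 1 of 23293 mouse genes. All 10 passed the filter for testing, an average over all 8 libraries of 1 FPKM or more, which 10854 genes passed.

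Messenger RNA was sequenced from c-Kit+ bone marrow cells, a fraction enriched for haematopoietic progenitors, selected on magnetic beads from individual mice 4 weeks after PIpC, the agent that induces Mx1-cre. Each of the 4 groups held 2 libraries. Controls carried Smc3 fl/+ and no Mx1-cre; the other 3 groups carried Mx1-cre, with Smc3 del/+, with Flt3-ITD, or with Flt3-ITD and a deleted Smc3 allele. For this last group, called the combined group below, the genotype label reads Smc3 fl/del while the sample title reads het. Smc3 is a core subunit of the cohesin ring, and Flt3-ITD is an activating internal tandem duplication of the Flt3 receptor kinase found in acute myeloid leukaemia. Mx1-cre acts in many cell types, haematopoietic cells among them, and every comparison with controls is also a comparison of Mx1-cre with no Mx1-cre.

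GATA factors bind DNA and act with the cofactor FOG1, the product of Zfpm1. They also act with a complex in which LMO2 and LDB1 bridge GATA1 to the basic helix-loop-helix factors TAL1 or LYL1. As red cell precursors mature, GATA1 takes over sites held by GATA2, and with KLF1, GFI1B and NF-E2 it controls the genes of haem, globins and the red cell membrane. In platelet precursors GATA1, FOG1, GFI1B and NF-E2 act on platelet genes, while GATA2, LMO2 and LYL1 are also known from stem and early progenitor cells.

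Kit, the receptor used for the selection, stood at 37.4 to 60.1 FPKM in the 8 libraries. Flt3 stood at 3.64 to 5.81 FPKM in 6 libraries and at 14.3 and 7.92 in the combined group. Smc3 itself was not lower in Smc3 del/+ (135.4 and 132.7 FPKM) than in controls (118.7 and 112.1) and stood at 103.0 and 135.9 in the combined group, so that directions below refer to the libraries as labelled. Xist, the RNA of the inactive X chromosome, stood at 500 to 657 FPKM in controls and the combined group and under 1 FPKM in Smc3 del/+ and Flt3-ITD. By Xist, then, the sexes differed in every comparison of 2 groups below except the combined group against control. Where the sexes differed, the parts of sex and genotype cannot be told apart. The averaged effects, and comparisons of all libraries with Flt3-ITD against all without, are balanced for sex. They are not balanced for Mx1-cre, which controls alone lack. Combined replicate 2 stood apart, with 11076 genes listed at 0 against 8878 to 9907 in the other libraries, and results that involve the combined group are given with and without it where it matters. The depth in reads is unknown; between-replicate correlations over tested genes were 0.932 in the combined group and 0.975 to 0.981 elsewhere.

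In controls the members spanned from 169.7 FPKM for Lmo2 to 13.0 for Gata2, a scale on which genes can be compared because FPKM is per transcript length. Nfe2 (96.5 FPKM), Ldb1 (73.2) and Gfi1b (50.6) followed Lmo2, then came Klf1 (46.8), Zfpm1 (36.5), Tal1 (34.8), Gata1 (31.1) and Lyl1 (30.4). The libraries of Gfi1b and Klf1 overlapped, as did those of Zfpm1 and Tal1, and those of Gata1 and Lyl1, so these neighbours did not differ beyond their spread. Lmo2, Nfe2 and Ldb1 were separated from each other and from the rest.

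The order changed in Flt3-ITD libraries. Nfe2 (mean 150.3 FPKM), Lmo2 (124.1), Lyl1 (36.6) and Ldb1 (35.0) headed it, with Lyl1 and Ldb1 overlapping. Gata2 (5.17) and Tal1 (5.12) came next, and Zfpm1 (3.50), Gfi1b (2.68), Gata1 (1.85) and Klf1 (1.79) were lowest, with libraries of these 6 genes overlapping in part. Gata2, the least abundant member in controls, thus ranked above Gata1 in mean, although 1 Flt3-ITD library held 3.27 FPKM of Gata2 and 3.16 of Gata1.

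**Figure D1:**
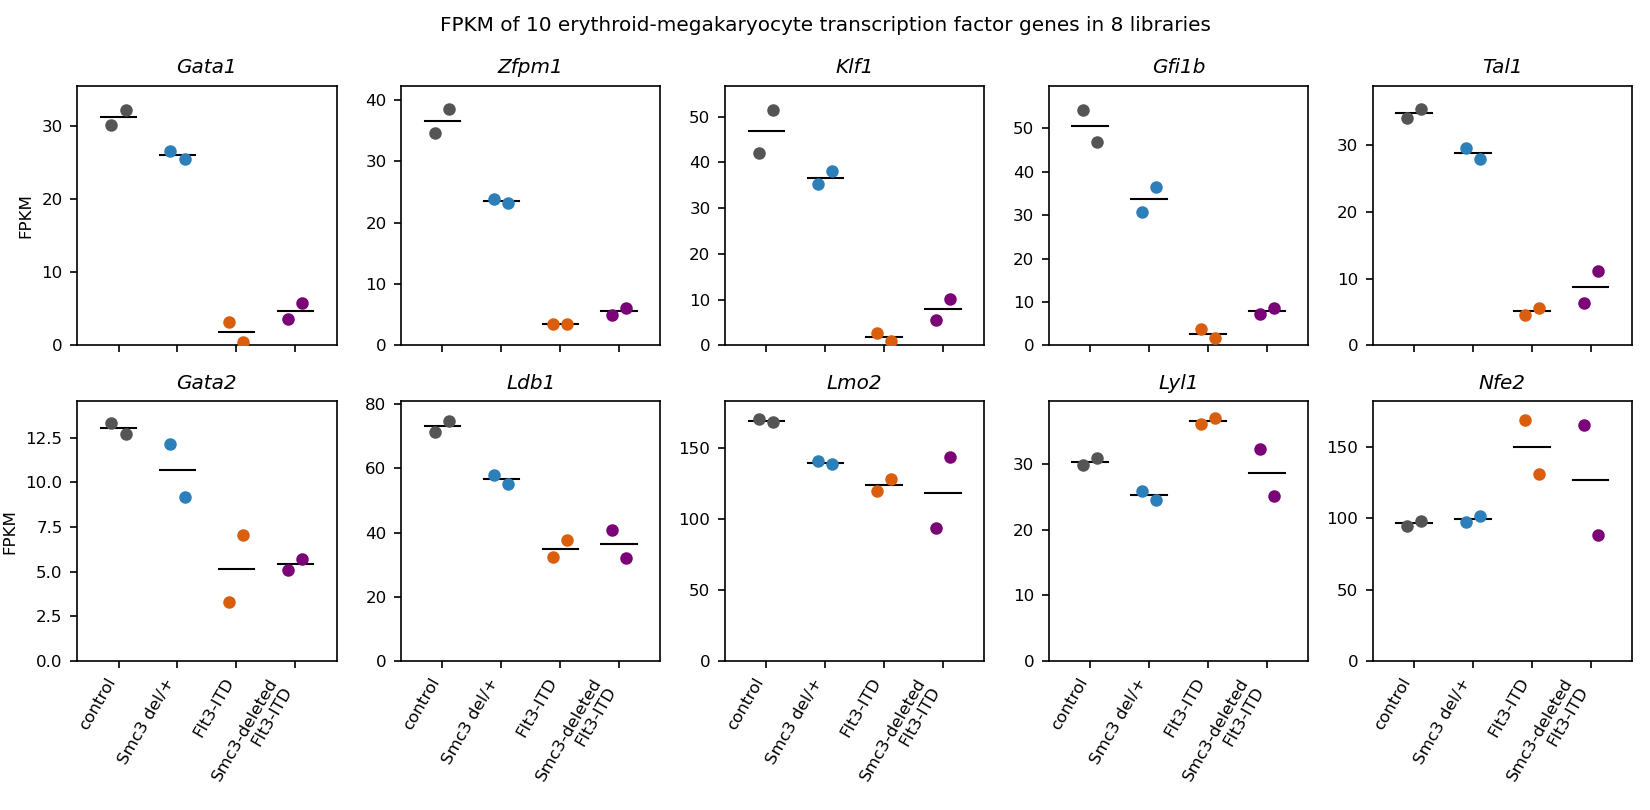
FPKM of the 10 genes (linear y axes from 0, a scale for each gene) in the 8 libraries by group (x axes); points are libraries and bars are group means of 2. Gata1, Zfpm1, Klf1, Gfi1b, Tal1, Gata2 and Ldb1 have both Flt3-ITD groups below both groups without it, whereas the Lyl1 and Nfe2 libraries of Flt3-ITD lie above those of controls.

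Of the 10 genes, 7 fell in Flt3-ITD libraries against control and 0 rose by limma's moderated test on log2(FPKM + 1) with Benjamini-Hochberg adjustment at 0.05. Over all genes tested the same test called 9.5% lower and 8.51% higher. The median log2 fold change of the 10 was -1.90, against -0.0068 over all tested genes. The 7 were Klf1, Gfi1b, Gata1, Zfpm1, Tal1, Gata2 and Ldb1. In bulk libraries, fewer cells of a type and less RNA per cell cannot be told apart.

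Gata1, the X-linked gene for the central GATA factor of red cell and platelet precursors, measured 30.1 and 32.1 FPKM in control libraries, where Smc3 del/+ libraries had 26.6 and 25.5. Flt3-ITD libraries had 3.16 and 0.534 FPKM, and combined libraries 3.60 and 5.83. Every library with Flt3-ITD was thus below every library without it. Flt3-ITD libraries held 5.94% of the control mean, a log2 fold change of -3.67 ± 0.42 (SE; limma adjusted p = 0.00269), which ranked at the 0.359 percentile from the lowest among all tested genes.

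Zfpm1, which encodes the GATA1 cofactor FOG1, had the smallest p of the 10. It stood at 34.5 and 38.5 FPKM in controls and at 3.54 and 3.47 in Flt3-ITD, 9.60% of the control mean (log2 fold change -3.06 ± 0.16, limma adjusted p = 0.000153). Smc3 del/+ libraries were intermediate at 23.8 and 23.1 FPKM, and the combined group held 4.97 and 6.09. No groups overlapped for this gene, but Smc3 del/+ against control (limma adjusted p = 0.764) and the combined group against Flt3-ITD (0.304) did not pass. With 2 libraries a group, 23.2% of all tested genes were lower without overlap in the first and 17.1% higher in the second. The share of all genes with 4 separate groups was not computed.

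Gata2, the GATA factor of stem and early progenitor cells that is also active in mast cells, had a smaller fold change. Its 13.3 and 12.7 FPKM in controls compared with 3.27 and 7.06 in Flt3-ITD, 39.6% of the control mean, and its log2 fold change was -1.26 ± 0.30 (limma adjusted p = 0.0279). Smc3 del/+ held 12.1 and 9.21 FPKM and the combined group 5.09 and 5.73. The spread between the Flt3-ITD libraries was wide, and the call was lost without Flt3-ITD replicate 1 (adjusted p = 0.125), without either control (0.165 and 0.13), without either Smc3 del/+ library (0.058 and 0.0573) and without a filter on low values (0.0599).

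The ratio of Gata1 to Gata2 was lower with Flt3-ITD. On the log2(FPKM + 1) scale, Gata1 minus Gata2 was 1.12 and 1.27 for controls and 1.07 and 1.38 for Smc3 del/+. Flt3-ITD libraries had -0.038 and -2.39, and combined libraries -0.41 and 0.022. Gata1 thus exceeded Gata2 by a similar margin in the 4 libraries without Flt3-ITD and was near or below it in the 4 with it. The difference of means was -1.91, from 1.21 ± 0.141 to -0.70 ± 1.14 (SD, n = 4 each; two-sided exact permutation p = 0.0286, also after adjustment over the 2 ratios tested). That p is the smallest that 4 libraries against 4 can give.

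Klf1, the erythroid Krüppel-like factor that acts on β-globin and red cell membrane genes, had the lowest fold change. Controls held 42.1 and 51.5 FPKM, Smc3 del/+ libraries 35.2 and 38.1, Flt3-ITD libraries 2.68 and 0.897, and combined libraries 5.56 and 10.2. The Flt3-ITD libraries, at 3.82% of the control mean, were separated from those of every other group. Their difference from the combined group did not pass (limma adjusted p = 0.144). The log2 fold change against control was -4.17 ± 0.35 (limma adjusted p = 0.00107), at the 0.175 percentile from the lowest of all tested genes.

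Gfi1b encodes a zinc finger repressor needed for red cells and platelets, which works with the CoREST and LSD1 proteins. Its transcripts measured 54.3 and 46.8 FPKM with no mutation, 30.8 and 36.5 with Smc3 del/+ alone, 3.69 and 1.68 with Flt3-ITD alone and 7.23 and 8.59 with both. All 4 groups were separate for this gene, but Smc3 del/+ against control and the combined group against Flt3-ITD did not pass for it either. Its log2 fold change in Flt3-ITD against control was -3.86 ± 0.26 (limma adjusted p = 0.000519).

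Tal1, the basic helix-loop-helix partner in the GATA1 complex, had 34.1 and 35.4 FPKM in control libraries, 29.5 and 28.0 with Smc3 del/+ alone, 4.62 and 5.62 with Flt3-ITD alone and 6.32 and 11.1 with both. Flt3-ITD libraries held 14.7% of the control mean, a log2 fold change of -2.55 ± 0.24 (limma adjusted p = 0.0014). Both groups with Flt3-ITD again lay below both without it.

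Lyl1, a close relative of Tal1 that is known from stem and early lymphoid progenitors, did not share this pattern. Control libraries had 29.8 and 31.0 FPKM, Smc3 del/+ libraries 26.0 and 24.6, Flt3-ITD libraries 36.1 and 37.1, and combined libraries 32.3 and 25.1. Flt3-ITD libraries were higher than controls without overlap, by 0.26 ± 0.15 on the log2 scale (limma adjusted p = 0.269), which did not pass. Scaling to the spike-in RNAs put the median over all tested genes at -0.49 and the table normalized by the authors put it at -0.58, and this difference turned to -0.27 in both.

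The ratio of Tal1 to Lyl1 is not moved by a common scaling except through the pseudocount. Tal1 minus Lyl1 on the log2(FPKM + 1) scale was 0.19 for both controls and 0.18 for both Smc3 del/+ libraries. Flt3-ITD libraries had -2.72 and -2.52, and combined libraries -2.18 and -1.11. The 4 libraries without Flt3-ITD were nearly alike and the 4 with it lay apart from them. The means differed by -2.32, from 0.18 ± 0.00647 to -2.13 ± 0.720 (SD, n = 4 each; two-sided exact permutation p = 0.0286, also after adjustment, the smallest possible).

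**Figure D2:**
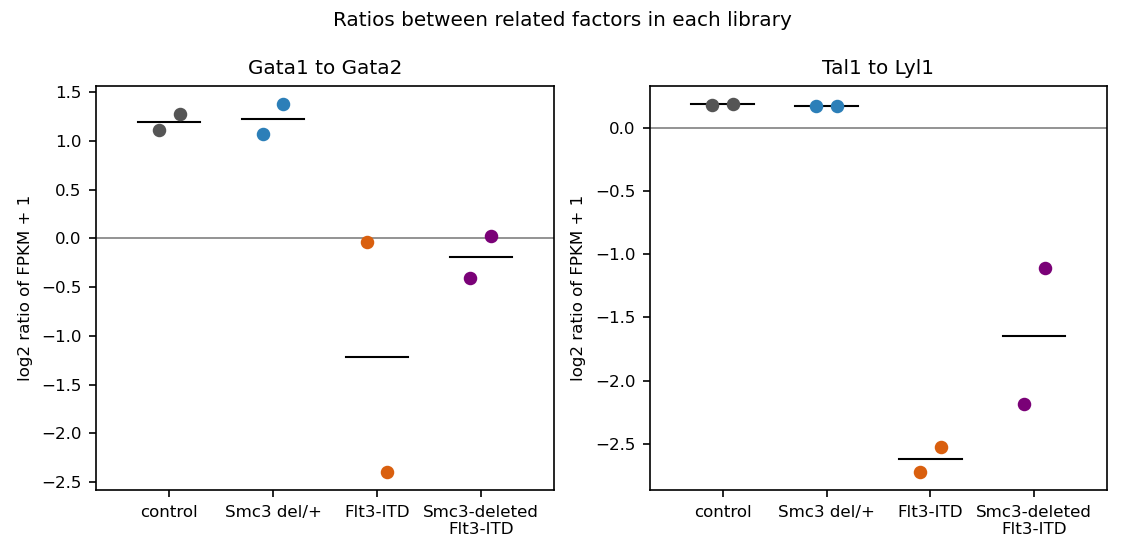
Log2 ratio of FPKM + 1 (y axes) of Gata1 to Gata2 and of Tal1 to Lyl1 in each library by group (x axes); points are libraries, bars are means of 2 and the horizontal line marks equal levels. The libraries without Flt3-ITD lie at 1.07 or more for Gata1 to Gata2 and at 0.18 or more for Tal1 to Lyl1, and those with Flt3-ITD lie at 0.022 or less and -1.11 or less.

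The genes of the bridging proteins had smaller fold changes. For Ldb1, whose product self-associates and so brings distant DNA sites together, controls held 71.4 and 74.9 FPKM and Smc3 del/+ libraries 58.0 and 55.3. Flt3-ITD libraries held 32.3 and 37.6 FPKM and combined libraries 40.8 and 32.2. At 47.8% of the control mean, its log2 fold change in Flt3-ITD was -1.05 ± 0.15 (limma adjusted p = 0.00557). Without a control library or without Flt3-ITD replicate 1 that call missed the threshold, at adjusted p of 0.0531 to 0.0612.

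Lmo2, the most abundant member in controls and a partner that binds no DNA itself, had 170.6 and 168.8 FPKM there, 140.9 and 139.1 with Smc3 del/+ alone, 119.7 and 128.5 with Flt3-ITD alone and 93.5 and 144.2 with both. Both Flt3-ITD libraries were below both controls, and the log2 fold change of -0.45 ± 0.20 did not pass (limma adjusted p = 0.151). It passed under spike-in scaling (-0.99, limma adjusted p = 0.006), where 31% of all tested genes were called lower. The authors' normalized table also passed it (-0.96, limma adjusted p = 0.005), with 43.2% of all tested genes lower. With only the compared groups fitted it passed too (-0.45, limma adjusted p = 0.0164), where 16.9% were lower. It passed as well without either combined library, where the estimate stayed at -0.45. Those fits hold 1 combined library and called more of all tested genes lower than the main fit.

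Nfe2 encodes the large subunit of NF-E2, the factor of platelet formation and globin genes that pairs with small MAF proteins, and it is also active in granulocytic cells. It was the member with the highest fold change. Controls had 94.6 and 98.4 FPKM of it and Smc3 del/+ libraries 97.8 and 101.7. Flt3-ITD libraries had 169.5 and 131.1 FPKM, and the combined libraries, at 165.9 and 88.5, differed widely from each other. Flt3-ITD libraries did not overlap controls and stood at 156% of their mean, but the difference of 0.62 ± 0.27 did not pass (limma adjusted p = 0.154). It passed with only the 2 compared groups (adjusted p = 0.0196) and without either combined library (0.00707 and 0.00708), fits in which 16.3% to 19.1% of all tested genes were called higher, and it was 0.082 under spike-in scaling and 0.11 in the authors' normalized table.

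Gata1, Gfi1b, Klf1, Tal1 and Zfpm1 kept their calls in Flt3-ITD against control under each of the 16 alternatives run. All 10 members had Flt3-ITD libraries that did not overlap controls, 8 lower and 2 higher. With 2 libraries a group, the same held for 35.2% of all tested genes in the lower direction and 34.3% in the higher.

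**Figure D3:**
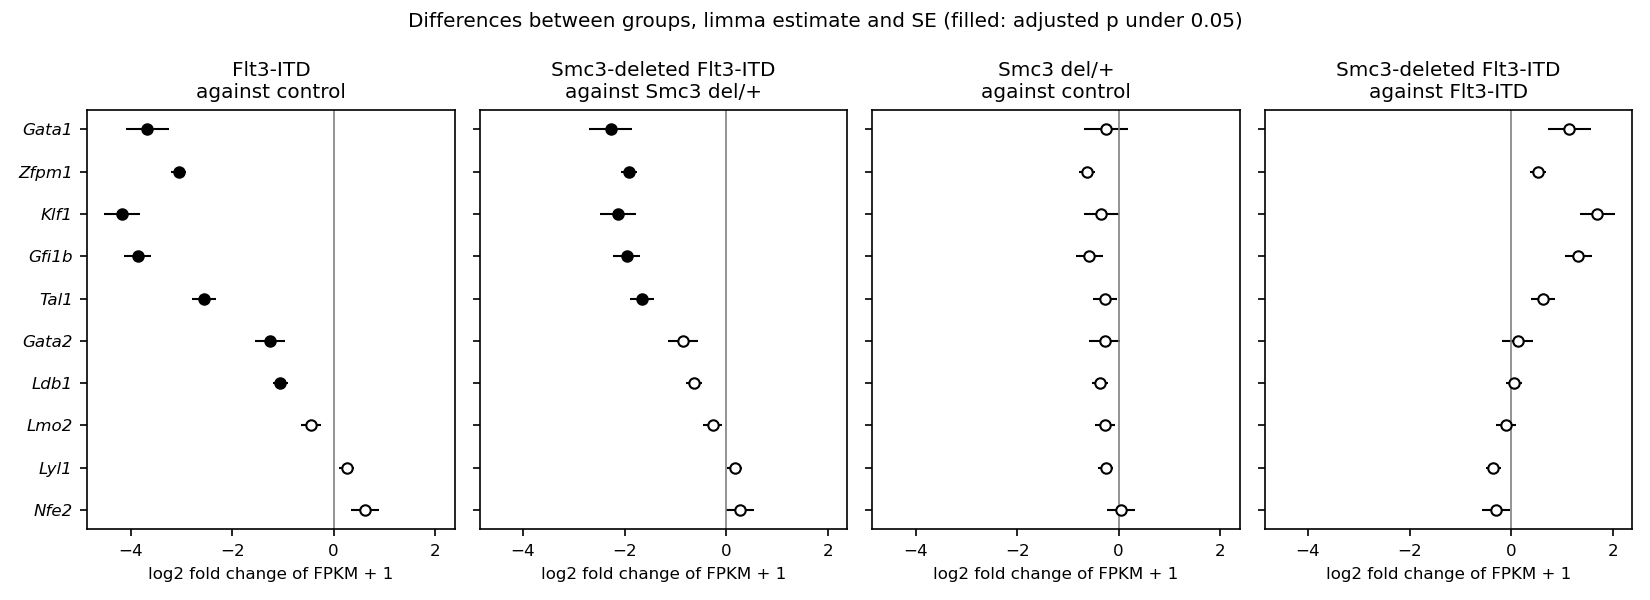
Log2 fold change of FPKM + 1 (x axes) of each gene (y axis) in 4 comparisons; points are limma estimates, horizontal lines are SE and filled points have an adjusted p under 0.05. The filled points are the 7 lower genes in Flt3-ITD against control and the 5 in the combined group against Smc3 del/+; the other 2 comparisons have open points alone.

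In the combined group against Smc3 del/+, where both groups carried Mx1-cre and a deleted Smc3 allele, 5 members fell and 0 rose, against 2.89% and 2.55% of all tested genes. The median of the 10 log2 fold changes was -1.26. Gata1 had -2.27 (limma adjusted p = 0.0276), Klf1 -2.13 (0.0209), Gfi1b -1.96 (0.0121), Zfpm1 -1.91 (0.00326) and Tal1 -1.66 (0.0143). Ldb1 (-0.63, adjusted p = 0.0606) and Gata2 (-0.85, adjusted p = 0.146) had lower means without passing, as did Lmo2 (-0.27). The libraries of 7 members were lower without overlap, against 25.7% of all tested genes. Lyl1 (0.17) and Nfe2 (0.28) had higher means on this scale and lower ones under spike-in scaling and in the authors' normalized table. The count of 5 changed with the libraries fitted, as did the share of all tested genes called lower. It was 0 without Smc3 del/+ replicate 1 (0.0276% of all genes) or with only the 2 groups fitted (0%), and 1 without Smc3 del/+ replicate 2 (0.0829%). It was 3 without control replicate 1 (0.709%) or replicate 2 (0.7%), 3 with no filter (1.23%) and 7 without combined replicate 2 (13%).

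Against controls, with which they share their sex by Xist, the combined libraries were lower for 7 members and higher for 0, against 6.38% and 5.41% of all tested genes. Gfi1b (-2.53, limma adjusted p = 0.0034), Zfpm1 (-2.52, 0.00176) and Gata1 (-2.52, 0.0125) had the lowest log2 fold changes. Klf1 followed with -2.47 (limma adjusted p = 0.00746), Tal1 with -1.92 (0.00531), Gata2 with -1.13 (0.0494) and Ldb1 with -0.99 (0.00946). These were the same 7 genes as in Flt3-ITD against control, a comparison that shares the control libraries. Gfi1b and Zfpm1 alone of the members passed without either control, where 0.562% of all tested genes were called lower, and with only the 2 groups fitted, where 0.221% were. Libraries of 8 members were lower without overlap, against 26.8% of all tested genes. Without combined replicate 2 the count of calls was 8, with Lmo2 added, and 1 higher, Nfe2, where 15.9% of all tested genes were lower and 15.7% higher.

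Averaged over both states of Smc3, which balances sex but not Mx1-cre, Flt3-ITD had 7 members lower and 0 higher. Over all tested genes 12.8% and 10.9% were called. Klf1 had a log2 difference of -3.15 (limma adjusted p = 0.00222), Gata1 -2.97 (0.00187), Gfi1b -2.91 (0.00194), Zfpm1 -2.48 (0.000823) and Tal1 -2.10 (0.00137). Gata2 (-1.06, adjusted p = 0.01) and Ldb1 (-0.84, adjusted p = 0.00343) were lower by less. The 4 libraries with Flt3-ITD lay below the 4 without for these 7 genes, a separation seen in the lower direction for 15.1% of all tested genes. None of the 7 calls was lost under any alternative run for this effect. Lmo2 was at -0.36 (limma adjusted p = 0.0887), Nfe2 at 0.45 (0.121) and Lyl1 at 0.21 (0.168). Lyl1 turned to -0.21 under spike-in scaling and -0.22 in the authors' normalized table. Leaving out 1 library moved Lmo2 from -0.50 to -0.25, Nfe2 from 0.31 to 0.67 and Lyl1 from 0.15 to 0.29. Each of them passed the threshold when a single library was left out, though not for every library.

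Smc3 del/+ against control gave 0 calls among the members, with 0.00921% of all tested genes called lower and 0% higher. The means of 9 members were lower in Smc3 del/+, with no overlap between libraries, a pattern found in 23.2% of all tested genes in that direction. The largest differences were in Zfpm1, 64.3% of the control mean (log2 fold change -0.61, limma adjusted p = 0.764), and Gfi1b, 66.5% (-0.58, adjusted p = 1). At an unadjusted p under 0.05 there were 2 members, Zfpm1 and Ldb1 (-0.36), where 4.55% of all tested genes passed in either direction. The other 6 lower members held 78.4% (Klf1) to 83.6% (Gata1) of the control mean, and Nfe2 held 103%. Nfe2 was lower under spike-in scaling and with the authors' normalization, which put the median over tested genes at -0.34 and -0.38.

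The combined group against Flt3-ITD also gave 0 calls, with 0.0461% of all tested genes called lower and 0.24% higher. The means of Klf1 (log2 fold change 1.70, limma adjusted p = 0.144), Gfi1b (1.33, 0.139), Gata1 (1.15, 0.391), Tal1 (0.63, 0.397) and Zfpm1 (0.53, 0.304) were higher in the combined group, with no overlap. No overlap was seen for 17.1% of all tested genes in that direction and for 16.8% in the other, in which Lyl1 lay. In percent of the control mean, Klf1 stood at 16.9% in the combined group and 3.82% in Flt3-ITD, Gfi1b at 15.6% and 5.31%, and Gata1 at 15.1% and 5.94%. These 5 and Lyl1 (-0.35) reached an unadjusted p under 0.05, as did 11% of all tested genes. Without combined replicate 1, which leaves the library that stands apart, the test called Klf1, Gfi1b, Tal1 and Zfpm1 higher and Nfe2 and Lyl1 lower, but it then also called 14.4% of all tested genes higher and 15.5% lower. With 1 combined library the spread comes from the other 3 groups, and that library is assumed to vary as they do. Without combined replicate 2 the test called 0 members, with 0.857% of all tested genes higher and 0.166% lower.

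The averaged effect of the Smc3 deletion called 0 members and 0% of all tested genes in each direction. Its estimates ran from -0.30 for Lyl1 (limma adjusted p = 0.901) to 0.68 for Klf1. Lyl1 was the single member at an unadjusted p under 0.05, where 4.84% of all tested genes passed. Libraries with and without the deletion overlapped for all 10 members; 0.783% of all tested genes were lower and 0.912% higher without overlap.

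Whether the Flt3-ITD difference itself differed with the Smc3 deletion was asked with the interaction term. It called 0 members, with 0.0184% of all tested genes called in each direction. The estimates were 2.04 for Klf1 (limma adjusted p = 0.282), 1.90 for Gfi1b (0.225), 1.40 for Gata1 (0.537), 1.15 for Zfpm1 (0.214) and 0.89 for Tal1 (0.474). These 5 had an unadjusted p under 0.05, against 9.3% of all tested genes. A positive value means that the fall with Flt3-ITD was smaller in libraries with the deletion. Sex by Xist follows the same contrast, and Mx1-cre, which controls alone lack, enters it too. Their parts and that of genotype cannot be told apart. Without combined replicate 1 the term called 5 members with positive values, Klf1, Gfi1b, Zfpm1, Tal1 and Lmo2, and 1 with a negative value, Nfe2, while calling 9.08% of all tested genes positive and 9.67% negative. Under spike-in scaling it called Gfi1b, with 0.249% of all tested genes called positive and 0.0276% negative.

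Promoter sequences were read for the members because GATA factors are known to act on several of their own genes. RefSeq start sites (assembly GRCm38.p6, a later build than the mm9 of the authors' alignment) gave 12 windows of 250 bases upstream for 8 members; Lmo2 and Nfe2 were not matched. The letters AGATAA or TGATAA, on either strand, were found in 4 windows, of Klf1, Gfi1b, Tal1 and Ldb1, and in 16.6% of all 32851 windows of this length. The stretches are printed 5′ to 3′ on the gene's strand, with the matched letters in capitals, for Klf1 (chr8:84901862-84901922, plus strand), Gfi1b (chr2:28622082-28622142, minus strand), Tal1 (chr4:115056181-115056241, plus strand) and Ldb1 (chr19:46037250-46037320, minus strand).
Klf1: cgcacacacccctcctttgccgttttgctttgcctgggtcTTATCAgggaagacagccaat
Gfi1b: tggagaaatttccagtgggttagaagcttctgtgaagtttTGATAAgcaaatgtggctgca
Tal1: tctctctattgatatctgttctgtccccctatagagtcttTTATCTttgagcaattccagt
Ldb1: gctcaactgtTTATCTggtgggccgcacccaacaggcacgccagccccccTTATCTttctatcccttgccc

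These 4 genes are among the 7 that fell in Flt3-ITD libraries. Of the 8 members with a window Lyl1 alone was not among those 7, so this overlap was nearly fixed in advance. Gata1, Gata2 and Zfpm1, which fell too, had no such letters in their windows, nor did Lyl1. The match lies 80 bases before the RefSeq start in Klf1, 120 in Gfi1b, 205 in Tal1, and 240 and 200 in Ldb1. A match is a description of the sequence and not evidence of binding.

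The letters CCNCNCCC, which include the CACC boxes that KLF factors bind, were found on either strand in 10 of the 12 windows, of 7 members, and in 45.9% of all windows. In Gata2 and Lyl1 some of these matches overlap within runs of G. The Gata1 window held 3 separate matches on the gene's strand, and the 100 bases around them (chrX:7967922-7968021, minus strand) are printed as an example, with the matches in capitals.
Gata1: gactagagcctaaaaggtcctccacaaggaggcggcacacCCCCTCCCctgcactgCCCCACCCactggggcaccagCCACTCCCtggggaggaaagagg

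E-box letters of the TAL1 type (CAGATG or CAGCTG) were found in 1 member window, 59 bases before the Klf1 start, and in 25.5% of all windows. The NF-E2 letters TGAGTCA were found in 0 member windows and in 4.46% of all windows.

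Among the members, the profiles over the 8 libraries fell into pairs of nearest neighbours by root mean square difference of centred log2(FPKM + 1). Gata1 and Gfi1b were nearest to each other (0.249), as were Zfpm1 and Tal1 (0.267), Gata2 and Ldb1 (0.254), and Nfe2 and Lyl1 (0.237). Klf1 was nearest to Gata1 (0.262) and Lmo2 to Ldb1 (0.345). Outside the 10, the tested genes most like Gata1 were Blvrb (0.169), Hbb-b2 (0.181), Add2 (0.185) and Tmem56 (0.206). Those most like Gata2 were Cercam (0.145), Ngfrap1 (0.158), B3galtl (0.161) and Psmd9 (0.171), and those most like Lyl1 were Mvb12b (0.0556), Sirt7 (0.0588), 4932416H05Rik (0.0641) and Ttyh3 (0.0708). Genes with little variation, as Lyl1, find near profiles easily.

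Partners that complete the GATA1 complex were measured as a list of 9 E protein, LIM-only and LDB1-binding genes, of which 8 were tested. The median over all tested genes, against which each list can be read, lay between -0.019 and 0.0059 in every comparison. The counts of each list in Flt3-ITD against control can be read against 9.5% of all tested genes called lower and 8.51% higher. Of these partners 4 fell and 1 rose in that comparison, with a median log2 fold change of -0.53. Ssbp3, which encodes a single-stranded DNA-binding protein that stabilizes LDB1, went from 49.8 and 52.1 FPKM in controls to 21.8 and 21.5 (-1.20, limma adjusted p = 0.00474). Tcf3, for the E2A proteins that pair with TAL1 and LYL1 and also drive B cell development, changed by -1.06 (adjusted p = 0.0243) and its relative Tcf12 by -0.75 (adjusted p = 0.0201). Lmo4, a LIM-only relative of Lmo2, rose from 132.9 and 143.5 FPKM to 277.9 and 250.6 (0.93, adjusted p = 0.00445). The calls of Tcf3 and Tcf12 were lost without any 1 library of the control, Smc3 del/+ and Flt3-ITD groups, that of Ssbp3 without either control and that of Lmo4 without control replicate 1, and that of Lmo4 also under spike-in scaling and in the authors' normalized table.

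Of 15 tested genes for corepressors through which FOG1 and GFI1B act, 1 fell and 1 rose in Flt3-ITD against control, with a median of -0.20. Over all tested genes 9.5% fell and 8.51% rose, and neither count exceeds that share. Mta3, a subunit of the NuRD complex, changed by -1.10 (limma adjusted p = 0.00904) and Ctbp2, a C-terminal binding protein, by 0.56 (adjusted p = 0.0391). The Mta3 call was lost without either control and without Flt3-ITD replicate 2. The Ctbp2 call was lost without any 1 library of the control, Smc3 del/+ and Flt3-ITD groups, and under spike-in scaling and in the authors' normalized table, where its log2 difference was 0.04 and 0.02. Among 5 tested small MAF and CNC genes, the partners and relatives of NF-E2, 0 fell and 1 rose: Mafg, at 22.1 and 29.2 FPKM in controls and 44.7 and 41.8 in Flt3-ITD (0.74, adjusted p = 0.0279). The Mafg call was lost without any 1 library of the control, Smc3 del/+ and Flt3-ITD groups (adjusted p = 0.0611 to 0.2), and under spike-in scaling and in the authors' normalized table, where the log2 difference was 0.22 and 0.21.

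Of 20 other lineage factors, 2 fell and 4 rose in Flt3-ITD against control, and the median was 0.36. Over all tested genes 9.5% fell and 8.51% rose, so the lower count is near that share. Sox6, a partner in the silencing of embryonic globins that is also needed for red cell maturation, went from 3.62 and 4.37 FPKM to 0.215 and 0.306 (-1.98, limma adjusted p = 0.00945), a call lost without either control or without Flt3-ITD replicate 1. Bcl11a, a globin repressor that is also needed for B cells, went from 61.6 and 59.8 to 22.0 and 20.0 (-1.49, adjusted p = 0.000848). Fli1, an ETS factor of platelet precursors that opposes KLF1, rose from 64.5 and 66.6 FPKM to 113.0 and 109.1 (0.75, adjusted p = 0.00636), and Hhex, a homeobox factor of early progenitors, differed by 0.72 (adjusted p = 0.0183). The differences of Fli1 and Hhex were 0.21 and 0.19 under spike-in scaling and 0.24 and 0.19 in the authors' normalized table, and did not pass there. The Fli1 call was also lost without either control or without Flt3-ITD replicate 1 (adjusted p = 0.0513 to 0.0789), and that of Hhex without any 1 library of the control, Smc3 del/+ and Flt3-ITD groups (0.0501 to 0.123).

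Red cell genes that GATA1 and KLF1 are known to control were measured as a list, chosen like the others with earlier results of these data known. Of 25 tested, 22 fell and 0 rose in Flt3-ITD against control, with a median of -3.32. Epb4.2 (-3.40, limma adjusted p = 0.000549), Ank1 (-3.64, 0.000768) and Sptb (-2.98, 0.000994), which encode protein 4.2, ankyrin and β-spectrin of the red cell membrane, were among those that fell, and none of these 3 calls was lost under any alternative. The α-globin and β-globin genes have near-identical copies between which reads can be split, so their values are uncertain.

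In the combined group against Smc3 del/+, 19 fell and 0 rose (median -2.25), against 2.89% and 2.55% of all tested genes. In Smc3 del/+ against control and in the combined group against Flt3-ITD 0 were called, with medians of -0.16 and 0.71. Summed over the list, the red cell genes of Smc3 del/+ libraries had 88.6% and 92.7% of the control mean FPKM. Those of Flt3-ITD libraries had 12.2% and 6.45%, and those of combined libraries 11.8% and 29.2%. These sums weight abundant genes most. Car1 alone held 1216 and 1135 FPKM of the control sums of 2967 and 2891. It held 109 and 406 FPKM of the combined sums of 344 and 855. Within Flt3-ITD, 20 of 25 genes were lower in replicate 2 than in replicate 1, as were 5 of the 10 members, Gata1, Klf1, Gfi1b, Zfpm1 and Nfe2; Tal1, Gata2, Ldb1, Lmo2 and Lyl1 were higher. Within the combined group 4 of 25 were lower in replicate 2, as were 3 members, Nfe2, Ldb1 and Lyl1.

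Platelet lineage genes made up another list of targets. Of 17 tested, 13 fell and 0 rose in Flt3-ITD against control (median -1.88), among them Gp1ba (-2.68, limma adjusted p = 0.00134) and Itga2b (-1.62, 0.00296), platelet receptors for von Willebrand factor and fibrinogen. Ppbp, a platelet granule chemokine, went from 48.4 and 53.2 FPKM in controls to 0.771 and 2.81 in Flt3-ITD (-4.32, adjusted p = 0.00209). In Smc3 del/+ it stood at 9.62 and 4.62 FPKM. In that group 0 genes of the list were called, yet all 17 means were below control with a median of -0.93, where all tested genes had 0.0012. The list's summed FPKM was 38.3% to 42.0% of the control mean for Smc3 del/+, 19.7% to 22.0% for Flt3-ITD and 19.1% to 33.4% for the combined group. Pf4 (105 and 98.2 FPKM) and Ppbp made up much of the control sums of 266 and 260 FPKM. In the combined group Pf4 held 9.54 and 52.0 FPKM of sums of 50.4 and 88.0. The difference between red cell and platelet lists was not tested.

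**Figure D4:**
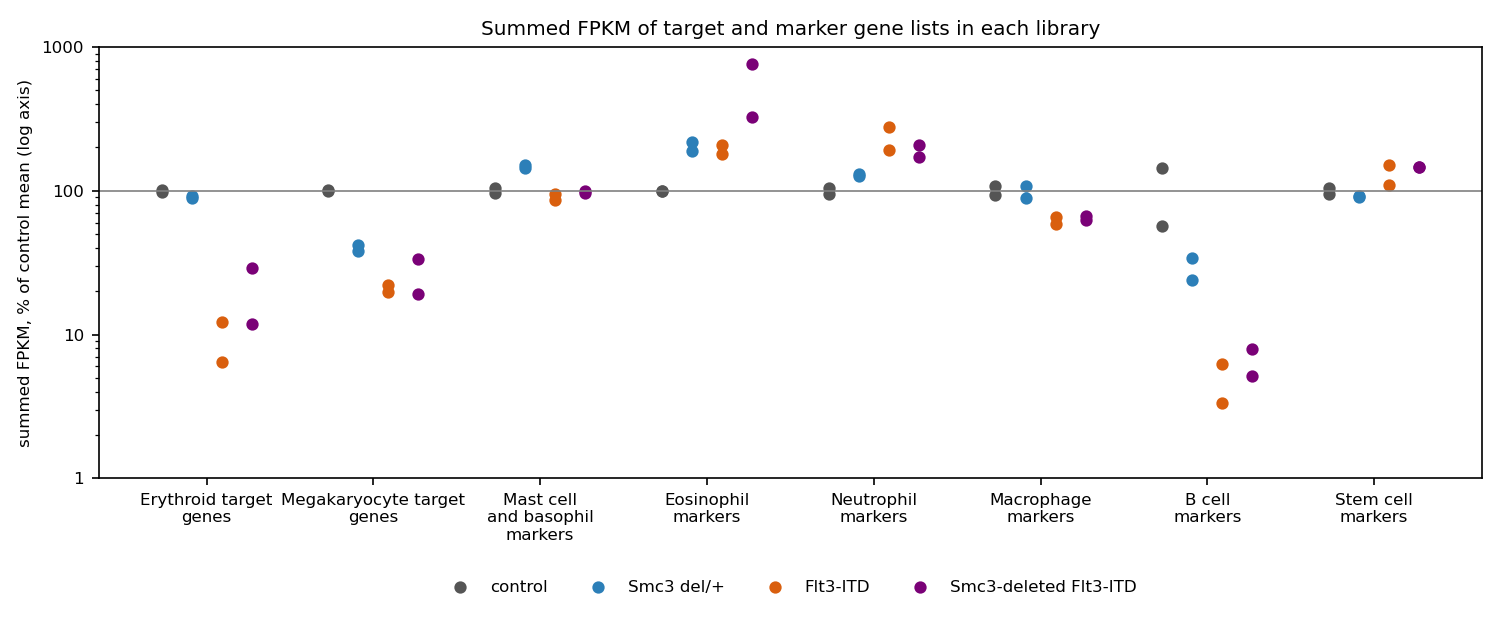
Summed FPKM of each list as percent of the control mean (y axis, log scale) for target and marker lists (x axis) in the 8 libraries, coloured by group. The line marks 100%, and the sums weight abundant genes most. Red cell targets in Smc3 del/+ lie at 88.6% and 92.7% while platelet targets lie at 38.3% to 42.0%, and both lists lie at 33.4% or less in both groups with Flt3-ITD.

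Markers of other cells changed beside the members, and their part in the results was not tested. B cell markers fell in Flt3-ITD against control in 9 of 10 tested genes, with summed FPKM of 3.33% and 6.21% of the control mean. The controls themselves stood at 143% and 56.7%, and Smc3 del/+ at 24.1% and 34.3%. Macrophage markers, which include the haem oxygenase gene Hmox1, fell in 7 of 10 and rose in 1. Of 10 neutrophil markers, 0 fell and 3 rose. Their sums, in which S100a8 and S100a9 weigh most, were 276% and 193% of the control mean for Flt3-ITD. They were 126% to 131% for Smc3 del/+ and 171% to 207% for the combined group.

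Gata1 and Gata2 are also expressed in mast cells, basophils and eosinophils. Of 7 tested mast cell and basophil markers, 2 fell and 1 rose in Flt3-ITD against control, with a median log2 fold change of -0.65. In the averaged Flt3-ITD effect 4 fell and 0 rose (median -0.68), where 12.8% and 10.9% of all tested genes were called. The summed FPKM of the markers, which weights abundant genes most, stood at 86.1% to 151% of the control mean over the 6 other libraries. The mast cell protease genes Cma1, Tpsb2, Tpsab1 and Mcpt4 were listed at 0 in all 8 libraries, as was Mrgprb1. Of eosinophil markers, 0 fell and 1 rose of 7 in Flt3-ITD against control. In the combined group against control 4 rose, where 5.41% of all tested genes were called higher. The eosinophil sums were 188% to 218% of the control mean for Smc3 del/+, 182% to 208% for Flt3-ITD, and 762% and 325% for the combined group. Of 11 stem cell markers 3 were tested, and 0 passed in either direction in Flt3-ITD against control. In the averaged Flt3-ITD effect, the combined group against control and that group against Smc3 del/+, 1 rose and 0 fell. There 10.9%, 5.41% and 2.55% of all tested genes were called higher.

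Whether reads were counted by strand is not stated in the labels, and RefSeq models overlap some members. Lyl1 overlaps Nfix, and Gata1, Gata2, Zfpm1, Tal1, Lmo2 and Gfi1b each overlap a predicted gene model, so reads of the partner could enter their values. Klf1, Nfe2 and Ldb1 overlap none.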

How the data were processed

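RNA was sequenced from 8 libraries of mouse c-Kit+ marrow cells. The authors deposited FPKM values, in a table as computed and in another normalized by a method that the labels do not state; both hold 23293 mouse genes and 92 ERCC spike-ins. The submitters' processing notes name TopHat, Cufflinks 2.0.0 and the mm9 build; neither the annotation nor the use of strand is stated. Main values come from the table as computed.

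The test was limma 3.58.1 (R 4.3.3, variance trend) applied to log2(FPKM + 1) of the 10854 genes whose average was 1 FPKM or more. P-values were adjusted by Benjamini-Hochberg over all of them and called under 0.05. The added pseudocount makes fold changes of low genes too small. Groups were compared in 1 fit of 4 group means (4 residual degrees of freedom), and averaged effects in an additive model (5). Replicates are individual mice. With 2 libraries against 2, an exact permutation test cannot go below p = 0.333, so calls rest on the model across genes. Relative depth, read from steps between low FPKM values, was 0.712 to 1.01; this estimate is uncertain. The fits were tested on simulated data.

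The 10 members, the 12 gene lists and the tests were chosen with earlier results of these data known. All members are named in each comparison where their values are given; of each list, up to 4 genes with the smallest p in Flt3-ITD against control, and of these only some that passed. One of the genes so picked is not reported here. For Gata1, Gata2 and Lyl1, the 4 most similar tested genes are named. The marker lists are stem cell, mast cell and basophil, eosinophil, neutrophil, macrophage and B cell. Alternatives were another pseudocount (0.1), no filter, other scalings, no trend, a replicate block, fits of only the compared groups, and leaving out each library.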

Additional observations from a re-analysis of the deposited data

How the results depend on the processing

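The 2 libraries a group, unknown depth, and sex and Mx1-cre that differ between groups limit every comparison. Replicate numbers do not pair the libraries: the correlation of deviations of same-numbered libraries ran from -0.113 to 0.0229. With the replicate block, both ratios kept their differences (-1.91 for Gata1 to Gata2 and -2.32 for Tal1 to Lyl1) at an exact permutation p of 0.0556, the smallest that the block allows. Leaving out 1 library moved the first from -2.15 to -1.35 and the second from -2.66 to -2.12, with p from 0.0286 to 0.0571. The block also lost the calls of Gata2 in the combined group against control (adjusted p = 0.068) and of 2 list genes, Ctbp2 (0.0614) and Camp (0.0651).

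Counts of members called changed by over 1.5 times as follows. With only the 2 compared groups fitted, Flt3-ITD against control had 1 higher, the combined group had 0 lower against Smc3 del/+ and 2 lower against control. With no filter, 3 were lower in the combined group against Smc3 del/+. Under spike-in scaling the interaction had 1 higher. Leaving out 1 library gave ranges of 5 to 8 lower and 0 to 1 higher in Flt3-ITD against control. For the combined group against Flt3-ITD they were 0 to 2 lower and 0 to 4 higher. Against Smc3 del/+ they were 0 to 7 lower and 0 to 1 higher, and against control 2 to 8 lower and 0 to 1 higher. The averaged Flt3-ITD effect had 7 to 8 lower and 0 to 2 higher, and the interaction 0 to 1 lower and 0 to 5 higher. Smaller changes under the other alternatives were 6 to 8 lower in Flt3-ITD against control, up to 9 lower in the combined group against control and up to 7 against Smc3 del/+, and 8 in the averaged effect. The causes of these changes were not tested.

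The authors' normalized table and spike-in scaling moved the median over all genes, and small differences turned sign there; the table did not apply 1 factor per library. In the normalized table Flt3-ITD against control had 4768 genes lower and 106 higher, against 1031 and 924 in the main values; spike-in scaling had 3363 and 103. Values that turned sign are given first for the normalized table, then for spike-in scaling. Lyl1 turned to -0.27 and -0.27 in Flt3-ITD against control, -0.17 and -0.16 in the combined group against Smc3 del/+, and -0.22 and -0.21 in the averaged Flt3-ITD effect. Nfe2 turned to -0.30 and -0.32 in Smc3 del/+ against control, -0.062 and -0.052 in the combined group against Smc3 del/+, and -0.36 and -0.37 in the combined group against control. In the combined group against Flt3-ITD, Ldb1 turned to -0.13 and -0.10, and Gata2 to -0.013 under spike-in scaling alone.

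Leaving out 1 library turned these further differences. In the combined group against Flt3-ITD, Gata2 ran from -0.33 to 0.58, Lmo2 from -0.40 to 0.22, Nfe2 from -0.75 to 0.15 and Ldb1 from -0.11 to 0.22. Against Smc3 del/+, Lmo2 ran from -0.58 to 0.042, Nfe2 from -0.17 to 0.73 and Lyl1 from -0.0087 to 0.34. Against control, Nfe2 ran from -0.12 to 0.78 and Lyl1 from -0.26 to 0.084. The interaction of Nfe2 ran from -0.79 to 0.11 and that of Lmo2 from -0.13 to 0.49.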
